A study of Mus musculus with 49 samples.

Results

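Cybb, Cyba, Ncf1, Ncf4, Pycard, Casp1, Casp4, Nlrp3 and Il18 encode parts of the phagocyte NADPH oxidase and of the inflammasome. They were taken by symbol from a table of raw read counts from mouse neocortex, in which all 9 were found among 45252 genes. RNAseq was performed on 49 rNLS8 and control mice, 1 library per mouse, whose strain is labelled C57BL/6J x C3H/HeJ. Bigenic rNLS8 mice carry 1 NEFH-tTA and 1 tetO-hTDP-43ΔNLS allele, so that human TDP-43 lacking its nuclear localization signal is made in neurons, under the neurofilament heavy chain promoter, once doxycycline is withdrawn. Control mice were monogenic and carry only the tetO-hTDP-43ΔNLS allele, so they lack the driver. All mice had vaccinations from 8 weeks of age, 5 before and 1 after doxycycline was taken out of the chow at 25.5 weeks. Neocortex was collected at 28.5 weeks, 3 weeks after induction. The 4 groups were monogenic mice given PBS (ctrl PBS, n = 17), rNLS8 mice given PBS (TDP-PBS, n = 10), rNLS8 mice given the combined TDP-43 peptides 10 and 12 (TDP10 + 12, n = 10) and rNLS8 mice given peptide 15 (TDP15, n = 12). The peptide dose was 40 µg, and the peptides were ovalbumin conjugates given with CpG and Alhydrogel. PBS took the place of the conjugate in both PBS groups.

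The phagocyte NADPH oxidase transfers electrons from NADPH across a membrane to oxygen and releases superoxide. Its catalytic subunit gp91phox (Cybb, also named NOX2) and p22phox (Cyba) form the membrane-bound heterodimer, and cytosolic subunits, among them p47phox (Ncf1) and p40phox (Ncf4), join it with a small GTPase of the Rac family when the cell is activated. Inflammasomes are cytosolic complexes in which a sensor such as NLRP3 recruits the adaptor ASC (Pycard) and thereby caspase-1 (Casp1), which matures interleukin-1β and interleukin-18 (Il18) and cleaves gasdermin D. Caspase-11 (Casp4 in mouse) is the noncanonical inflammasome caspase, which binds bacterial lipopolysaccharide in the cytosol. In the brain, microglia and border macrophages are the main cells known for both systems, and neutrophils and monocytes carry the oxidase at high levels.

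On GRCm38.p6, RefSeq places Cybb at chrX:9435252-9487766, Cyba at chr8:122424771-122432940, Ncf1 at chr5:134220053-134229628 and Pycard at chr7:127991373-127993867, all on the minus strand. Ncf4 lies at chr15:78244164-78262582, Nlrp3 at chr11:59541569-59566955, Casp1 at chr9:5298517-5307281, Casp4 at chr9:5308849-5336791 and Il18 at chr9:50554700-50581841, on the plus strand.

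Promoter sequence is shown for the oxidase members whose counts moved together most closely (Cybb and Ncf1) and for Cyba, which makes the membrane heterodimer with Cybb. RefSeq windows on GRCm38.p6 were found for 8 of the 9 members, 10 windows in all because Casp4 and Nlrp3 have 2 each. The 250 bases before each start site were searched on both strands. The letters sought were the core of the interferon-stimulated response element (GAAANNGAA), the gamma-activated site (TTCNNNGAA), a PU.1/ETS core (GAGGAA) and an NF-kappaB core (GGANNTTCC). Matches are in capitals, each sequence reads 5′ to 3′ on the strand of the gene, and the last base printed is the one before the start site.
Cybb, chrX:9469325-9469574, minus strand: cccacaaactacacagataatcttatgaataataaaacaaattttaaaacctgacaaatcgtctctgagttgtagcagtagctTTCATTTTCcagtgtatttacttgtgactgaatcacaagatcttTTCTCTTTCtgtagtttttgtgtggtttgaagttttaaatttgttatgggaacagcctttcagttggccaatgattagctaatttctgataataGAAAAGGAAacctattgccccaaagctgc
Ncf1, chr5:134229626-134229875, minus strand: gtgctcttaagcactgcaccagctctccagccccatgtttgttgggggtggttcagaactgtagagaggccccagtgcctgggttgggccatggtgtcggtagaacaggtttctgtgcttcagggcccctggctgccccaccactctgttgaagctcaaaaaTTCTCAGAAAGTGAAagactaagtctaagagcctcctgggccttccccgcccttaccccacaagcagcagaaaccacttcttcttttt
Cyba, chr8:122432941-122433190, minus strand: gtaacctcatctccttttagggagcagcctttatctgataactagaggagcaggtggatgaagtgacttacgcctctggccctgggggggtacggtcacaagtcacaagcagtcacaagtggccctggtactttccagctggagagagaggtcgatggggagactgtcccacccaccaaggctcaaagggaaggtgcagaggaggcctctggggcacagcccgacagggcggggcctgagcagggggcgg
The Cybb window lies before a start site inside the annotated gene (chrX:9435252-9487766) and held 3 matches to the interferon response core, on the reverse strand at -167 and -123 and on the forward strand at -29, counted from the start site. The Ncf1 window held a gamma-activated site at -88 that overlaps an interferon response core at -82. The Cyba window held no match to the letters sought for any of the 4 motifs. Elsewhere among the members, the PU.1/ETS letters were found in the windows of Pycard, Casp1 and Nlrp3 and the NF-kappaB letters in the other Nlrp3 window. The letters sought were not found in the windows of Casp4 and Il18. Of 32851 promoter windows in the RefSeq table, 7.13% held the interferon response core, 7.02% the gamma-activated site, 23.3% the PU.1/ETS core and 3.59% the NF-kappaB core. These are matches of letters only, and binding was not measured. Other spellings of the 4 motifs were not searched. Windows without a match, such as those of Casp4, Il18 and Cyba, can therefore still hold such sites.

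The libraries held between 17775738 and 21033608 counts. Values are normalised read counts (CPM, counts relative to library size after scaling by the trimmed mean of M-values), and n is the number of mice. Where 3 values are given for a group, they are its lowest, median and highest mouse. All 9 members were among the 18220 genes that passed the filter on low counts. Most members were sparse: Cybb was counted 5 to 21 times per ctrl PBS library, Casp4 0 to 11 times and Il18 166 to 248 times. A count of 0 allows up to 3 counts at these depths. The human transgene was not analysed here, and mouse Tardbp was at 146 ± 9.27 CPM (SD, n = 17) in ctrl PBS and at 118, 124 and 121 CPM on average in TDP-PBS, TDP10 + 12 and TDP15. Markers of other cells were checked first, since 3 male mice stood apart in 10 neutrophil markers. The sum of these markers was 55.4 CPM in ctrl PBS mouse 137, 20.8 in TDP-PBS mouse 26 and 14.4 in ctrl PBS mouse 71, and at most 7.65 CPM in the other mice. Of their defining markers, S100a8 and S100a9 reached 5.46 and 6.56 CPM in ctrl PBS, and Ly6g was at 0 in every TDP10 + 12 and TDP15 mouse. Counts of members are therefore also given without these 3 mice.

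Divided by exonic length, the members of the ctrl PBS cortex were ordered Il18, Cyba, Ncf1, Casp1, Ncf4, Nlrp3, Pycard, Cybb and Casp4. Il18 stood at 10.6 ± 1.02 CPM per kb (SD, n = 17), Cyba at 2.83 ± 0.666 and Ncf1 at 1.39 ± 0.228. Casp1 followed at 1.03 ± 0.382 CPM per kb, Cybb was at 0.119 ± 0.0440 and Casp4 at 0.0730 ± 0.0464. Only Il18 and Cyba were separated from their next neighbour in every ctrl PBS mouse, and every pair of neighbours from Ncf1 down overlapped. In TDP-PBS the order was the same down to Ncf4, but Cybb came next at 0.396 ± 0.112 CPM per kb (n = 10), with ranges that overlapped those of Ncf4 and Pycard. Il18 and Cyba overlapped there, at 9.15 ± 1.92 and 5.71 ± 1.13 CPM per kb.

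The first comparison asks how the transgene was associated with these genes in mice given PBS. All 4 oxidase members and the adaptor Pycard rose in TDP-PBS against ctrl PBS, between 1.63-fold for Ncf4 and 3.31-fold for Cybb, whereas Il18 fell slightly and Nlrp3, Casp1 and Casp4 did not pass the test. The members called higher were 5 of 9 (55.6%), against 21.9% of all 18220 genes tested, and 1 of 9 was lower, against 21.6% of all genes. The median log2 fold change was 0.70 over the members and -0.000388 over all genes. The members and the pathway lists below were chosen with earlier results of these data known, so their shares only describe them. In TDP10 + 12 against ctrl PBS, 6 of 9 members were higher and 0 lower, against 20.8% and 20% of all genes. In TDP15, 6 were higher and 1 lower, against 23.6% and 23.2%. Both counts of 6 include Casp4, which passed the filter on low counts mainly through rNLS8 mice. These comparisons share the ctrl PBS mice. Without the 3 mice high in neutrophil markers, the members called in either direction were 7 in TDP-PBS, 6 in TDP10 + 12 and 7 in TDP15. Casp4 was among them in each group. Of all 18268 genes tested in that fit, 7766, 7403 and 8485 were called.

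**Figure D1:**
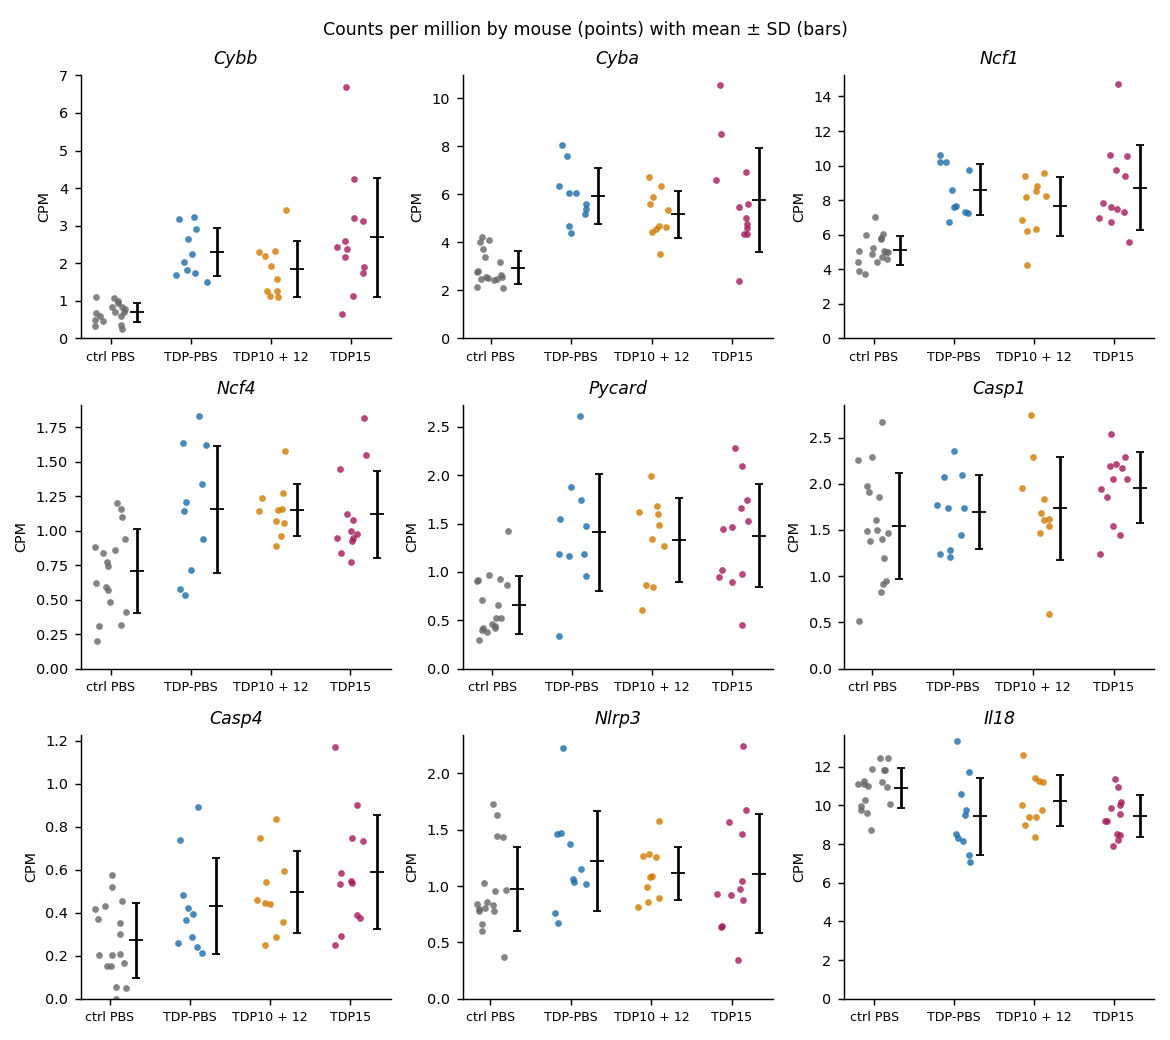
Normalised read counts (CPM) of the 9 members in each mouse (points, 1 per mouse) by group, with mean ± SD as bars beside the points and linear axes from 0. Cybb in TDP-PBS lay above every ctrl PBS mouse, as it did in TDP10 + 12 by a margin within counting error. In TDP15, 1 mouse at 6.70 CPM stood highest, whereas Casp1, Nlrp3 and Il18 overlapped between groups.

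Cybb, the catalytic subunit, showed the largest fold change of the members. Cybb was at 0.256, 0.704 and 1.11 CPM among control mice, 1.49, 2.14 and 3.24 without peptide (TDP-PBS), 1.11, 1.75 and 3.43 after TDP10 + 12 and 0.647, 2.41 and 6.70 after TDP15. Of 32 rNLS8 mice, 31 were above every ctrl PBS mouse, some only narrowly, and TDP15 mouse 284 was within the ctrl PBS range. The log2 fold change was 1.73 ± 0.238 (SE) in TDP-PBS, with an adjusted p of 3.26e-08 (edgeR). It was 1.41 ± 0.241 in TDP10 + 12 (adjusted p = 3.43e-06) and 1.95 ± 0.226 in TDP15 (adjusted p = 3.32e-10). TDP15 mouse 126 carried the highest value, and without it the TDP15 log2 fold change was 1.74.

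Cyba encodes p22phox, which stabilises every NOX1 to NOX4 catalytic subunit and is more widely expressed than Cybb. Cyba was at 2.09, 2.65 and 4.21 CPM among control mice, 4.39, 5.83 and 8.05 without peptide (TDP-PBS), 3.52, 5.01 and 6.71 after TDP10 + 12 and 2.40, 5.25 and 10.6 after TDP15. All 10 TDP-PBS mice, 9 of 10 TDP10 + 12 mice and 11 of 12 TDP15 mice exceeded every ctrl PBS mouse. Log2 fold changes of Cyba were 1.01 ± 0.143 (SE), 0.81 ± 0.144 and 0.97 ± 0.136 in TDP-PBS, TDP10 + 12 and TDP15, the order kept for the next members, with adjusted p-values of 5.73e-08, 6.62e-06 and 4.60e-08 (edgeR). Cybb and Cyba were thus the 2 of 9 members for which every TDP-PBS mouse lay above every ctrl PBS mouse, as was true of 2.31% of all genes tested. In TDP10 + 12 this held for Cybb alone, against 2.23% of all genes, and in TDP15 for 0 members, against 2.45%. The Cybb separation in TDP10 + 12 was a near tie within counting error. The lowest mouse there, 277, was at 1.1065 CPM (23 counts), and the highest ctrl PBS mouse, 71, at 1.10543 CPM (21 counts).

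The cytosolic subunits Ncf1 and Ncf4 rose in all 3 rNLS8 groups, with smaller fold changes than Cybb and Cyba, a difference between genes that was not tested. Ncf1 was at 3.74, 4.995 and 7.03 CPM among control mice, 6.72, 8.13 and 10.6 without peptide (TDP-PBS), 4.22, 8.22 and 9.55 after TDP10 + 12 and 5.56, 7.72 and 14.7 after TDP15. The groups overlapped, with 24 of 32 rNLS8 mice above every ctrl PBS mouse. The highest ctrl PBS value was that of mouse 137, which also had the most neutrophil marker counts. Log2 fold changes of Ncf1 were 0.75 ± 0.117 (SE), 0.58 ± 0.118 and 0.78 ± 0.111, with adjusted p-values of 4.61e-07, 5.74e-05 and 7.08e-08 (edgeR). Ncf1 shares 4303 bases with Gtf2ird2 on the opposite strand, and whether counting used strand is not given in the sources used here.

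Ncf4, which encodes the subunit that binds phosphatidylinositol 3-phosphate, was at 0.201, 0.741 and 1.20 CPM among control mice, 0.535, 1.17 and 1.83 without peptide (TDP-PBS), 0.889, 1.15 and 1.58 after TDP10 + 12 and 0.775, 0.986 and 1.82 after TDP15. The groups overlapped, with 11 of 32 rNLS8 mice over the highest control. Log2 fold changes were 0.70 ± 0.203 (SE), 0.70 ± 0.203 and 0.66 ± 0.194, with adjusted p-values of 0.00383, 0.00412 and 0.00435 (edgeR). The highest TDP-PBS value was that of mouse 26, the rNLS8 mouse with the most neutrophil marker counts, and without the 3 mice the TDP-PBS log2 fold change was 0.59 (adjusted p = 0.0203).

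Among the inflammasome members, the adaptor moved and the sensor did not pass the test. Pycard was at 0.300, 0.520 and 1.42 CPM among control mice, 0.337, 1.33 and 2.61 without peptide (TDP-PBS), 0.603, 1.41 and 1.99 after TDP10 + 12 and 0.448, 1.45 and 2.28 after TDP15. The groups overlapped, and 17 of 32 rNLS8 mice were above every ctrl PBS mouse. Log2 fold changes were 1.08 ± 0.236 (SE), 1.002 ± 0.237 and 1.05 ± 0.225, with adjusted p-values of 0.000161, 0.000500 and 0.000114 (edgeR). Mice 71 and 26, both high in neutrophil markers, held the highest Pycard values of ctrl PBS and TDP-PBS, and without the 3 mice the TDP-PBS log2 fold change was 1.03.

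Nlrp3, the sensor, was at 0.367, 0.842 and 1.72 CPM among control mice, 0.674, 1.11 and 2.22 without peptide (TDP-PBS), 0.818, 1.08 and 1.58 after TDP10 + 12 and 0.348, 0.952 and 2.25 after TDP15. The groups overlapped, with 2 of 32 rNLS8 mice above and 1 below the ctrl PBS range. The log2 fold change in TDP-PBS was 0.33, with a 95% interval from -0.09 to 0.75 and an adjusted p of 0.207 (edgeR). It was 0.19 in both peptide groups, with intervals that reached 0.62 in TDP10 + 12 and 0.60 in TDP15. Increases as large as that of Pycard in the same comparison lay outside these intervals, but the difference between the genes was not tested.

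Casp1 and Casp4 are neighbours on chromosome 9, 1568 bases apart. Casp1, the canonical inflammasome protease, was at 0.514, 1.48 and 2.67 CPM among control mice, 1.21, 1.74 and 2.35 without peptide (TDP-PBS), 0.594, 1.65 and 2.74 after TDP10 + 12 and 1.24, 2.05 and 2.54 after TDP15. The ranges overlapped almost completely, with 1 of 32 rNLS8 mice above every ctrl PBS mouse. The log2 fold change was 0.13 in TDP-PBS (95% interval -0.23 to 0.49) and 0.17 in TDP10 + 12 (-0.19 to 0.53). In TDP15 it was 0.34 (0.01 to 0.68), with an adjusted p of 0.0872 (edgeR), and it passed the threshold with sex as a covariate (adjusted p = 0.0455) and in limma-voom (0.0361), among adjusted p-values from 0.0361 to 0.149 over 10 alternatives.

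Casp4 was the lowest of the members. Casp4 was at 0, 0.206 and 0.577 CPM among control mice, 0.214, 0.381 and 0.891 without peptide (TDP-PBS), 0.251, 0.452 and 0.834 after TDP10 + 12 and 0.249, 0.544 and 1.17 after TDP15. The groups overlapped, and 10 of 32 rNLS8 mice exceeded every ctrl PBS mouse. Casp4 rose in TDP10 + 12, with a log2 fold change of 0.86 ± 0.303 (SE, adjusted p = 0.0188, edgeR), and in TDP15, with 1.10 ± 0.283 (adjusted p = 0.00110). For TDP-PBS, its log2 fold change was 0.66 ± 0.309 (adjusted p = 0.0803). The highest ctrl PBS value was again that of mouse 137, and without the 3 mice high in neutrophil markers the TDP-PBS log2 fold change was 0.84 with an adjusted p of 0.0355. Casp4 did not pass the test between the rNLS8 groups. Its ctrl PBS counts were mostly under the filter's minimum count of 10, so Casp4 passed the filter mainly through rNLS8 mice. In fits of ctrl PBS with only 1 rNLS8 group, Casp4 did not pass the filter and was not tested.

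Il18, the cytokine that caspase-1 matures, moved the other way. Il18 was at 8.71, 11.1 and 12.5 CPM among control mice, 7.06, 9.02 and 13.3 without peptide (TDP-PBS), 8.37, 9.88 and 12.6 after TDP10 + 12 and 7.90, 9.37 and 11.3 after TDP15. The groups overlapped, with 10 of 32 rNLS8 mice below every ctrl PBS mouse and 2 above. Il18 fell by 0.21 on the log2 scale in TDP-PBS (SE 0.0782, adjusted p = 0.0254, edgeR) and by 0.21 in TDP15 (SE 0.0737, adjusted p = 0.0181). In TDP10 + 12 the value was -0.09 (adjusted p = 0.369). With only ctrl PBS and TDP-PBS mice in the fit, the TDP-PBS call was lost at an adjusted p of 0.0505. Il18 overlaps Bco2 and Tex12 on the opposite strand.

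**Figure D2:**
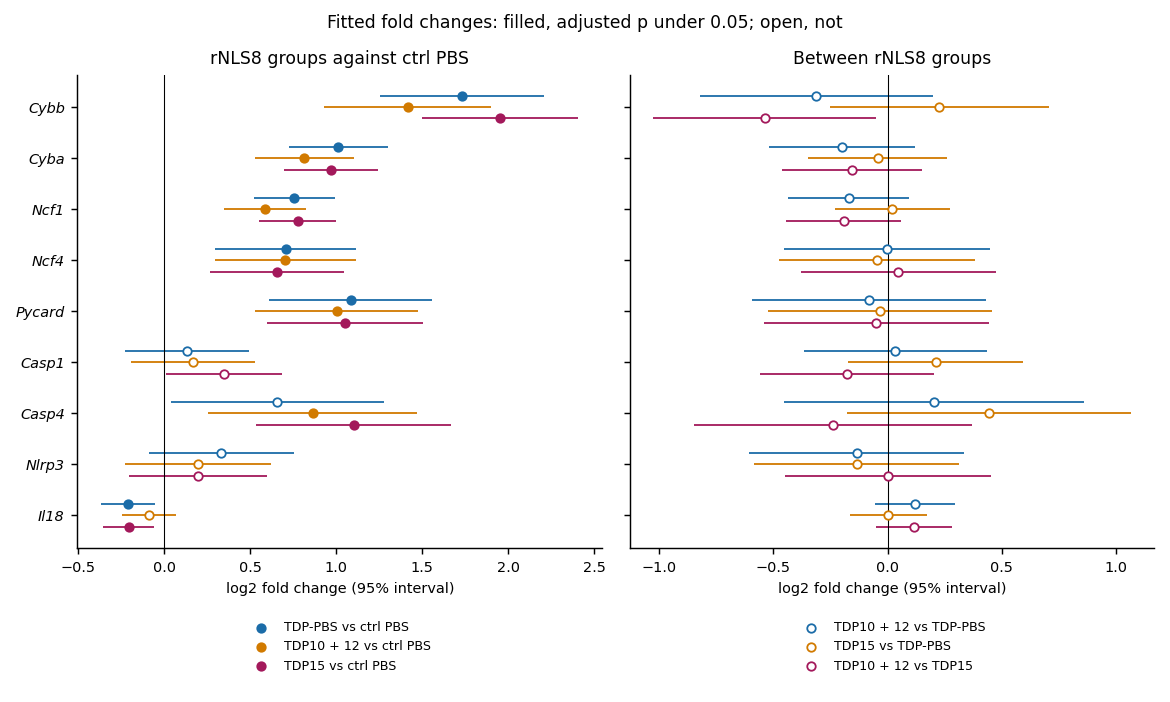
Fitted log2 fold changes of the 9 members with 95% intervals, each rNLS8 group against ctrl PBS on the left and the rNLS8 groups against each other on the right, filled where the adjusted p was under 0.05. Cybb lay between 1.41 and 1.95 on the left, Il18 between -0.21 and -0.09, and no point on the right is filled.

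Comparisons among the rNLS8 groups ask whether vaccination was associated with these genes. Between TDP10 + 12 and TDP-PBS, TDP15 and TDP-PBS, and TDP10 + 12 and TDP15, 0 of 9 members passed the test (edgeR), and 0% of all 18220 genes did. At an unadjusted p under 0.05 there were 953, 552 and 1244 genes, and the members among them numbered 0, 0 and 1. DESeq2 and limma-voom also called 0 members. The 1 member was Cybb, which was lower in TDP10 + 12 than in TDP15, at -0.54 on the log2 scale (95% interval -1.02 to -0.05), with a p of 0.0310 and an adjusted p of 0.681 (edgeR). Without TDP15 mouse 126 this value was -0.33 (unadjusted p = 0.151, adjusted p = 0.922, edgeR). Against TDP-PBS, Cybb differed by -0.31 in TDP10 + 12 (-0.82 to 0.20) and by 0.23 in TDP15 (-0.25 to 0.70). The TDP15 value was 0.0165 without mouse 126 and turned to -0.0329 in limma-voom. For Ncf1 the intervals were narrower, from -0.43 to 0.09 in TDP10 + 12 and from -0.23 to 0.27 in TDP15. For Casp4 they were wide, from -0.45 to 0.86 and from -0.18 to 1.06.

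The spread within groups was compared without a test. Over the 12 TDP15 mice the coefficient of variation was 58.9% for Cybb, 37.3% for Cyba and 28.3% for Ncf1, against 37.1%, 23.5% and 16.4% in ctrl PBS. Ncf4 went the other way, at 28.5% in TDP15 and 43.0% in ctrl PBS. In TDP10 + 12 the coefficient was 39.9% for Cybb, 18.9% for Cyba, 22.2% for Ncf1 and 16.5% for Ncf4. In TDP-PBS (n = 10), Cybb was at 0.396 ± 0.112 CPM per kb (SD) and Cyba at 5.71 ± 1.13. Ncf1 was at 2.35 ± 0.402 there and Ncf4 at 0.571 ± 0.227. Relative to the mean, this spread was below that of ctrl PBS for Cybb, Cyba and Ncf4 and slightly above it for Ncf1. Counting error adds more spread at low counts, so coefficients at unlike counts are not directly comparable. TDP15 mouse 126 held the highest Cybb, Cyba, Ncf1 and Casp4 value of all 49 mice, at 6.70, 10.6, 14.7 and 1.17 CPM. The TDP15 spread of Cybb, Cyba and Ncf1 thus rests in part on this mouse. TDP15 mouse 284 had 1 member above every ctrl PBS mouse, and the median rNLS8 mouse of each group had 4. This count per mouse was not made over all genes, so it only describes these mice.

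To describe how the members varied together, all 36 pairs were correlated over the 32 rNLS8 mice on log2 CPM after group means were removed. The median Pearson r was 0.308, and 4 pairs passed an adjusted p of 0.05 (permutation within groups, 2-sided), all of them positive. The share of pairs passing among all genes was not computed, so whether 4 of 36 is unusual was not tested. Cybb and Ncf1 had the highest r, at 0.682 (adjusted p = 0.00324 by permutation), with a Spearman rho of 0.633 (adjusted p = 0.0108) and an r of 0.612 without the 2 mice farthest from the Cybb median. Cyba and Ncf1 followed at an r of 0.621 (permutation, adjusted p = 0.00864), which was 0.410 without the 2 farthest mice. Their rho was 0.467 (adjusted p = 0.0626 by permutation). Cybb with Nlrp3 and with Pycard had r of 0.562 and 0.538 (permutation, adjusted p = 0.0318 and 0.0157) and rho of 0.434 and 0.488 (adjusted p = 0.0770 and 0.0626 by permutation). These fell to an r of 0.329 and 0.341 without the 2 farthest mice, TDP15 mice 126 and 284, so they rest in part on those mice. Cybb and Casp1 passed by rank only, with a rho of 0.543 (adjusted p = 0.0333 by permutation) and an r of 0.417 (adjusted p = 0.0652). The pairs of Il18 with Cybb and Ncf1 were at an r of -0.203 and -0.269 and did not pass (adjusted p = 0.305 and 0.226 by permutation).

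**Figure D3:**
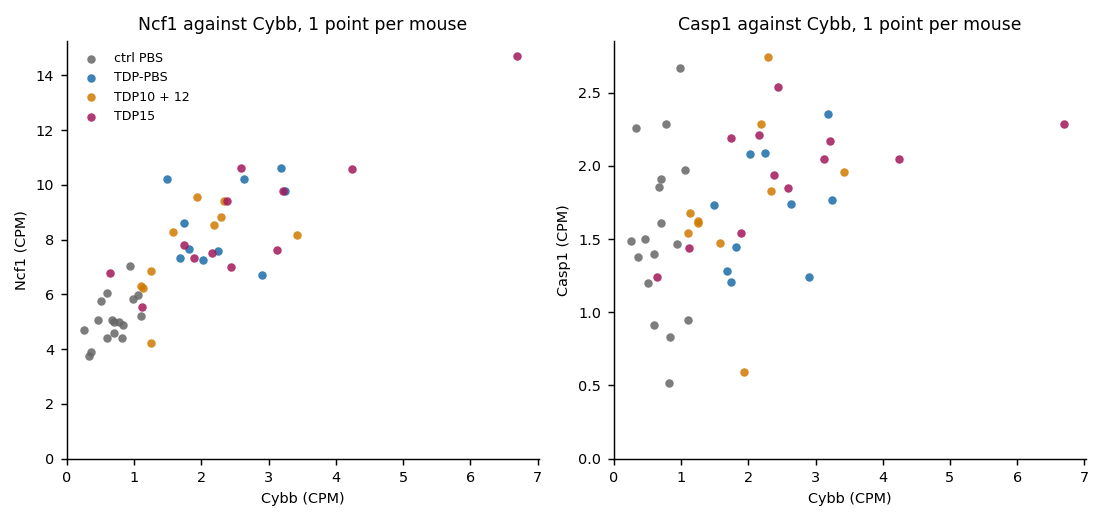
Ncf1 (left) and Casp1 (right) against Cybb, in CPM, with 1 point per mouse coloured by group. Over rNLS8 mice, with group means removed, r was 0.682 for Ncf1 and 0.417 for Casp1, and the TDP15 mouse at 6.70 CPM of Cybb also had the highest Ncf1, at 14.7 CPM.

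Genes outside the members whose deviations were among those most like those of Cybb over the 32 rNLS8 mice were Cd74 (r = 0.825), Cd84 (0.796), Pld4 (0.795) and H2-Q4 (0.777). Cd74 encodes the invariant chain of MHC class II. Without TDP15 mice 284 and 126, these r values ranged from 0.649 to 0.726. The genes most like Casp1 were Icosl (r = 0.784), Ddit4l (0.709), Gstt1 (0.675), C1rb (0.669) and Gm7335 (0.667). Without TDP10 + 12 mouse 301 and TDP15 mouse 284 these fell to between 0.349 and 0.653, with Icosl the highest. These genes were picked for their likeness and were not tested.

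The other oxidase genes were read from a list of 17, of which 10 passed the filter on low counts. Nox1, Nox3, Nox4, Noxa1, Duox2, Duoxa1 and Duoxa2 did not. Against ctrl PBS, TDP-PBS mice had 6 of these genes higher and 1 lower, with a median log2 fold change of 0.51, beside 21.9% higher and 21.6% lower among all genes. Hvcn1, the voltage-gated proton channel that balances the charge moved by the oxidase, rose by 1.19 on the log2 scale (adjusted p = 3.21e-10, edgeR). Rac2, the Rac GTPase of blood cells, rose by 0.88, and Vav1, an exchange factor for Rac, by 0.59. Prkcd, a kinase that phosphorylates p47phox, rose by 0.46. Cybc1, a chaperone of the membrane heterodimer, rose by 0.22. Rac1, the ubiquitous Rac GTPase, fell by 0.36 (adjusted p = 2.78e-13, edgeR). In TDP10 + 12 there were 5 higher and 1 lower, beside 20.8% and 20% of all genes. In TDP15 there were 7 higher and 1 lower, beside 23.6% and 23.2%. Without the 3 mice high in neutrophil markers, the oxidase genes called in TDP-PBS were 5 higher and 1 lower. Of all 18268 genes in that fit, 7766 were called in either direction.

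Of 32 other inflammasome and interleukin-1/18 genes, 23 passed the filter, and Nlrp10, Nlrp12, Nlrc4, Mefv, Il1b, Il1rn, Il1r2, Il18r1 and Il18rap did not. In each rNLS8 group, 13 of the 23 were higher than in ctrl PBS and 4 lower, beside 21.9%, 20.8% and 23.6% higher and 21.6%, 20% and 23.2% lower among all genes in TDP-PBS, TDP10 + 12 and TDP15. The median log2 fold change was 0.43 in TDP-PBS, 0.47 in TDP10 + 12 and 0.54 in TDP15. In TDP-PBS the largest increases were those of Naip2 (1.16), Il1a (1.09), Naip1 (1.02), Naip5 (0.84) and Naip6 (0.83), on the log2 scale. Naip proteins sense bacterial flagellin and secretion system proteins for the NLRC4 inflammasome, and Il1a encodes interleukin-1α. Naip genes are close copies of one another, so their counts are uncertain. Il1r1, Il18bp, Casp8, Ninj1, Gsdmd, Aim2, P2rx7 and Txnip also rose. Il18bp encodes the soluble inhibitor of interleukin-18 and Gsdmd the pore-forming substrate of both caspases. The 4 that fell were Serpinb1a (-0.57), which encodes an inhibitor of neutrophil proteases and caspases, the channel gene Panx1 (-0.53), Gsdme (-0.39) and Nek7 (-0.16), whose product binds NLRP3. Without the 3 mice high in neutrophil markers, 13 were higher and 4 lower in TDP-PBS, beside 7766 of 18268 genes called in either direction.

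**Figure D4:**
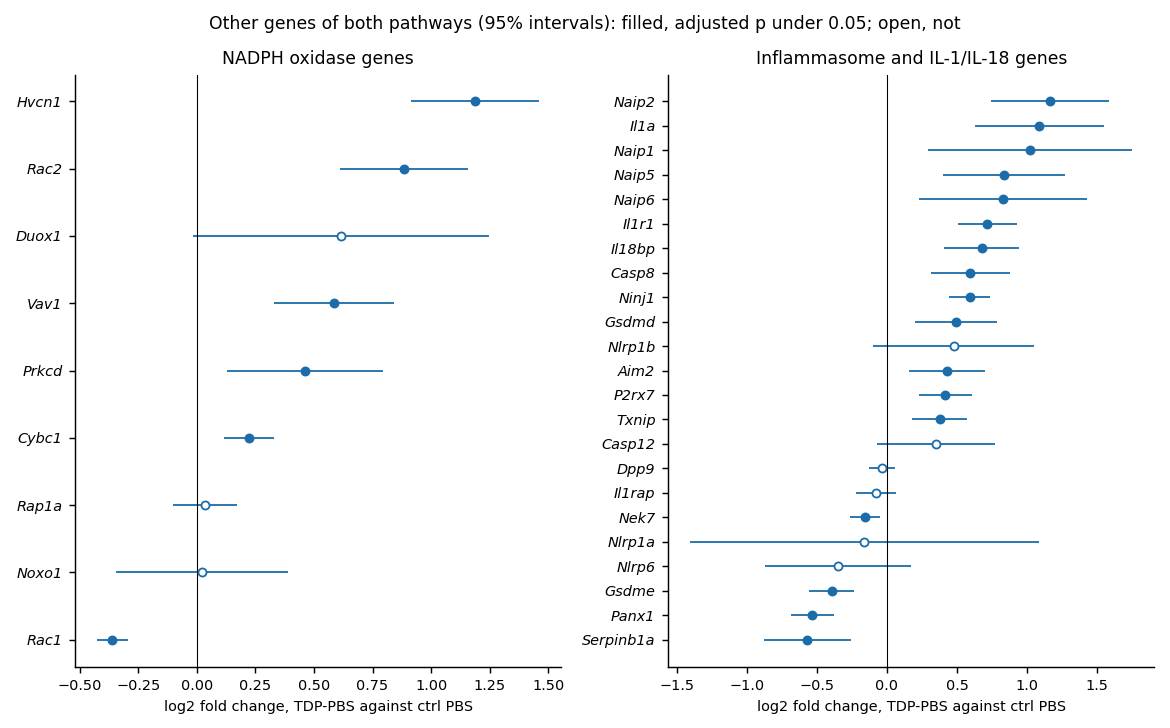
Fitted log2 differences of TDP-PBS from ctrl PBS, with 95% intervals, for other genes of both pathways that passed the filter, filled where the adjusted p was under 0.05. Hvcn1 at 1.19 and Naip2 at 1.16 lead the lists, and Rac1 (-0.36) and Serpinb1a (-0.57) are lowest.

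Some cell type markers differed with the genotype as well. Of all genes, 21.9% were higher in TDP-PBS, 20.8% in TDP10 + 12 and 23.6% in TDP15, and 21.6%, 20% and 23.2% were lower. Several of the marker lists, each of few genes, were near or below these shares. In bulk tissue, more cells of a type and more RNA per cell cannot be told apart. The sum of 10 homeostatic microglia markers had a median of 298 CPM in ctrl PBS (271 to 346), 368 in TDP-PBS (331 to 432), 355 in TDP10 + 12 (283 to 416) and 378 in TDP15 (284 to 470). The ratio of medians was 1.23 in TDP-PBS, where the log2 fold change of Cybb corresponded to 3.31-fold and that of Cyba to 2.02-fold. The first is a ratio of summed CPM and the others are fitted values of single genes. They are unlike measures, and the difference was not tested. Of these 10 markers, 6 were higher in TDP-PBS, 5 in TDP10 + 12 and 7 in TDP15, with 1 lower in each peptide group. Tmem119 and Cx3cr1 were higher in TDP-PBS, whereas P2ry12 was at -0.09 on the log2 scale. Of 6 border-associated macrophage markers, 4 were higher in TDP-PBS, 4 in TDP10 + 12 and 2 in TDP15, and their sum had medians of 6.21 CPM in ctrl PBS and 8.74 in TDP-PBS. Of 6 monocyte markers, 4 were tested, with 1 higher in TDP-PBS (Plac8) and 2 in each peptide group. Ccr2 did not exceed 0.790 CPM in any mouse, and Chil3 was at 0 in 9 of 17 ctrl PBS mice.

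Of 10 neutrophil markers, 2 were tested, 0 were higher in any rNLS8 group, and 0, 1 and 2 were lower in TDP-PBS, TDP10 + 12 and TDP15, whereas the median sums of all 10 were 1.25 CPM in ctrl PBS, 2.23 in TDP-PBS, 1.58 in TDP10 + 12 and 1.41 in TDP15. The ctrl PBS mean of 6.13 CPM included mice 137 and 71, at 55.4 and 14.4 CPM, and the lower calls were made with these mice in the fit. Of 7 T cell markers, Cd4 and Lck were tested: 1 was higher and 1 lower in each rNLS8 group (Lck higher and Cd4 lower in TDP-PBS), and Cd3e, Cd3d and Cd3g did not exceed 0.397 CPM. Of 5 B cell and plasma cell markers, 3 were tested, with 0 called in TDP-PBS and TDP10 + 12 and 2 higher in TDP15. Of 5 neuron markers, 3 were lower in each rNLS8 group. Of 5 astrocyte markers, 2 were lower in TDP-PBS, 2 in TDP10 + 12 and 3 in TDP15. Gfap, the filament gene of reactive astrocytes, is not in that list and was added after its values were seen. It was at 123 ± 27.1 CPM (SD, n = 17) in ctrl PBS, 381 ± 111 in TDP-PBS, 382 ± 269 in TDP10 + 12 and 365 ± 113 in TDP15. Of 5 oligodendrocyte markers, 0 were called in any group. Of 5 endothelial markers, 1 was higher in TDP-PBS, 0 were called in TDP10 + 12, and 1 was higher and 1 lower in TDP15. The part of these markers in the changes of the members was not tested.

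Sex was examined because each group held both. Between males and females, with group in the model, 0 of 9 members passed the test (edgeR), and 0.0933% of all genes did, 17 in number, with 724 at an unadjusted p under 0.05. Casp1 was the 1 member at that level, lower in males, at -0.26 on the log2 scale (p = 0.0457, adjusted p = 0.999). The difference of the genotype effect between the sexes was called for 0 members and 0% of all genes, with 674 genes at an unadjusted p under 0.05, and DESeq2 and limma-voom called 0 members too.

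Casp4 and Cyba were the 2 members at that unadjusted level. Casp4 was at 0.180 ± 0.130 CPM in 10 ctrl PBS females (SD) and 0.401 ± 0.142 in 7 ctrl PBS males, and at 0.613 ± 0.204 in 15 rNLS8 females and 0.419 ± 0.223 in 17 rNLS8 males. Females of the 2 genotypes overlapped only between 0.289 and 0.416 CPM, and males overlapped widely. The ctrl PBS females had 0 to 8 Casp4 counts per mouse, all under the filter's minimum count of 10. Differences that rest on them are limited by counting error. The genotype effect in males minus that in females was -1.71 ± 0.437 on the log2 scale (SE), with an unadjusted p of 0.000297 and an adjusted p of 0.999 (edgeR), so it failed the correction. Its adjusted p ranged from 0.418 to 1 over the alternatives, and without TDP15 mouse 126, the male with the highest Casp4, the value was -1.82 (adjusted p = 0.532, edgeR). Cyba was at 2.66 ± 0.593 CPM in ctrl PBS females and 3.34 ± 0.653 in ctrl PBS males, and at 5.97 ± 1.13 in rNLS8 females and 5.33 ± 1.83 in rNLS8 males. Its difference was -0.51 ± 0.220 (SE, unadjusted p = 0.0235, adjusted p = 0.999, edgeR). Both neutrophil markers tested were also at an unadjusted p under 0.05 in the same comparison. All 3 mice high in neutrophil markers were males, and without them the values were -1.62 for Casp4 (unadjusted p = 0.00167) and -0.46 for Cyba (0.0565).

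**Figure D5:**
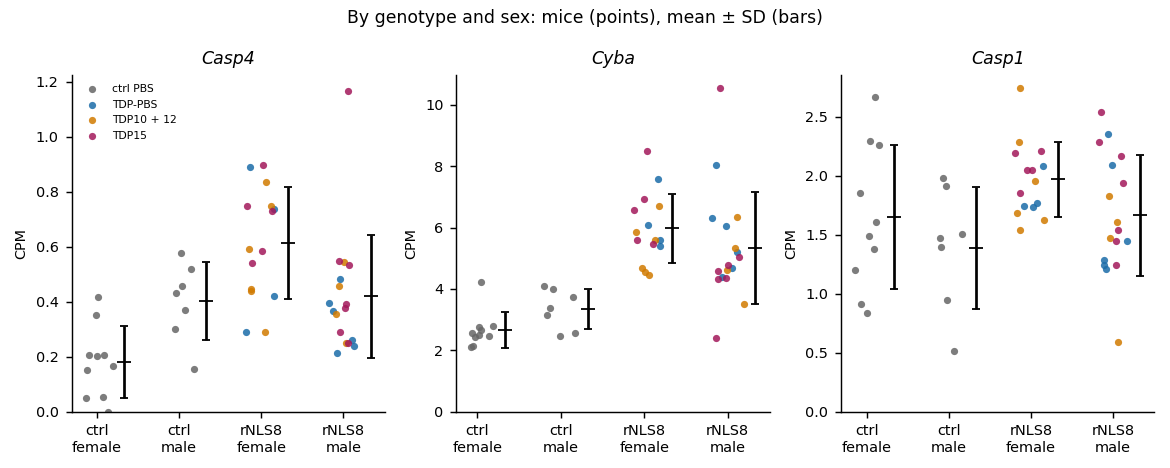
Casp4, Cyba and Casp1 in CPM by genotype and sex, with 1 point per mouse coloured by group and mean ± SD as bars beside the points. Casp4 means were 0.180 and 0.401 CPM in ctrl PBS females and males and 0.613 and 0.419 in rNLS8 females and males, a difference that failed the correction over all genes. The ctrl PBS females had 0 to 8 Casp4 counts per mouse.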

How the data were processed

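Raw read counts per gene symbol were deposited for 49 libraries by the authors, who aligned 100 bp paired-end reads of neocortical mRNA to GRCm38.p6. Per the labels, the submitters' processing notes name mm10, HISAT, HISAT2, Bowtie, Bowtie2 and RSEM, without roles. The gene annotation, strand setting and version of each tool are not given in the sources used here. Members and gene lists were chosen with earlier results of these data known. Groups were taken from the labels.

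Counts were filtered with filterByExpr (minimum count 10, minimum total 15), which left 18220 of 45252 genes, and scaled by TMM. The quasi-likelihood test of edgeR 4.0.16 (R 4.3.3) was fitted to all 49 mice with group as the factor, and p-values were adjusted by Benjamini-Hochberg over all genes tested, with a threshold of 0.05. The sex comparison added sex to group, and the genotype-by-sex comparison used means of group and sex. Fold changes are from this fit, and ranges are CPM. Pairs were tested with 100000 permutations within groups on log2 CPM with a prior count of 2, adjusted over 36 pairs. Exonic lengths are from GENCODE M21, positions and promoters from RefSeq GRCm38.p6. In a test on simulated counts of the TDP-PBS comparison over 18044 genes, 93.9% of changes of 1 on the log2 scale and 100% of changes of 2 were recovered, with 13 false calls. The 200 changed genes were drawn from all levels, and the 198 that passed the filter were scored. These shares therefore do not describe sparse members such as Casp4.

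Named genes were all members, the called genes of both pathway lists in TDP-PBS, with values for up to 5 in each direction, and the 5 genes most like Cybb and Casp1. Cybc1 has a value beyond that rule, and 2 genes that it would name are not reported here. Alternatives were 2 other scalings, 2 filters, DESeq2 1.42.0, limma-voom 3.58.1, sex as a covariate, fits of only the groups compared, and 2 fits without doubted mice, the last chosen after seeing the data. Each library is taken as 1 animal from the number in its label. No 2 libraries of a group agreed within sampling noise. Counting error limits the low members.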

Additional observations from a re-analysis of the deposited data

Results flagged for a closer look

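In TDP10 + 12, the Cybb value of female mouse 47 was 3.43 CPM (70 counts), and the next of the 10 mice was at 2.34. The gap was 0.469 of the range of the group, beyond Dixon's 95% critical value of 0.466. In TDP-PBS, the Nlrp3 value of male mouse 91 was 2.22 CPM (45 counts), with the next of the 10 mice at 1.47 and a gap of 0.485 of the range. Chance places about 1 in 20 groups beyond this limit, and these members were tested in the 2 groups of 10 mice only, since the other groups are larger.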

How the results depend on the processing

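The members called moved by over 1.5 times under 1 alternative. With at least 10 counts required in every mouse, only 4 members were tested, and 3 were called in TDP-PBS, 2 in TDP10 + 12 and 3 in TDP15. Of all 14742 genes tested under that filter, 7313, 6873 and 7786 were called in either direction. All other counts of members and pairs stayed within 1.5 times. Of single members against ctrl PBS, Casp4 in TDP-PBS passed in limma-voom (log2 fold change 0.86, adjusted p = 0.0423) and without the 3 mice high in neutrophil markers. Between rNLS8 groups and sexes, uncalled values changed sign, and none passed. Against TDP-PBS in TDP10 + 12, the log2 fold change became 0.0022 for Ncf4 with no filter, 0.15 for Ncf4 and 0.0099 for Pycard in limma-voom, 0.0949 and 0.0602 without the 3 mice, and -0.0284 for Casp1 with sex as a covariate. In TDP15 it became -0.0329 for Cybb, -0.0478 for Ncf1, 0.0664 for Ncf4 and 0.0155 for Pycard in limma-voom, 0.0133 for Cyba, 0.0467 for Ncf4 and 0.11 for Pycard without the 3 mice, and -0.0715 for Ncf1 without TDP15 mouse 126. Between TDP10 + 12 and TDP15 it became 0.0392 for Pycard without mouse 126 and -0.0301 for Nlrp3 with the sex covariate. Between the sexes it became -0.0419 for Cybb in limma-voom, -0.0504 for Cybb without mouse 126 and -0.0030 for Pycard without the 3 mice. The causes were not tested. No animal number occurs in 2 groups, and litter is not among the labels used here, so no paired or litter-blocked analysis was made. The paper states that littermates were distributed over the cohorts. Casp4, with 0 to 23 counts per mouse, is limited by counting error.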
